A study of Mus musculus with 23 samples.

Results

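The effect of chronic intermittent hypoxia (CIH) on aortic RNA was compared between 12 and 8 weeks of exposure, as the difference CIH 12W minus Nor 12W less the difference CIH 8W minus Nor 8W. This difference of differences is called the interaction here. It was computed for each of the 65956 gene-level probe sets of a Clariom D mouse array, that is every probe set other than the 6732 controls among 72688. The comparison used 19 of the 23 arrays: 5 each of Nor 8W, CIH 8W and Nor 12W, and 4 of CIH 12W. Values after ± are SDs. All mice were ApoE-/- males of strain C57BL/6J fed high-fat feed, 8 weeks old when exposure began. CIH animals breathed repeated cycles of low oxygen during the day, and Nor animals received the same cycling airflow as room air. Thus the controls shared the gene deletion, the diet and the handling, and the groups compared at 12 weeks were also older than those at 8 weeks. The remaining 4 arrays (CIH 8W+Nor 4W) came from mice returned to normoxia after 8 weeks and entered only the estimate of the spread. The signals are log2 values normalized across arrays by the authors, and all differences below are on this log2 scale.

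The brightest smooth muscle genes stood at the top of the scale (Acta2 with a mean of 19.92 in CIH 12W), as the tissue label implies. Apoe, the gene deleted in all groups, lay at 4.58 to 5.41 in the 23 arrays, in the range of the background limit of the arrays, 4.64 to 5.50. Between 27.3 and 35.9% of probe sets exceeded that limit, which is the 95th percentile of an array's background probes. Whole aorta holds smooth muscle, endothelium, adventitia, infiltrating leukocytes, nerves and adhering fat, and in such bulk samples fewer cells of a type cannot be told apart from less RNA per cell. A list of 21 sympathetic neuron genes had a mean signal of 10.01 in Nor 8W replicate 3, 6.48 and 5.81 in CIH 8W replicates 3 and 5, and 8.09 and 7.28 in Nor 12W replicates 3 and 4, against 4.19 to 4.84 in all other arrays. These 5 arrays are called neuron-rich, and results are also given without them. CIH 8W replicate 3 and Nor 12W replicate 3 also had the lowest smooth muscle signals, and CIH 8W replicates 2 and 3 had the highest macrophage signals. The hour at which aortas were collected is not given in the sources used here.

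ApoE-deficient mice cannot clear remnant lipoproteins normally and develop atherosclerosis on a fatty diet. Intermittent hypoxia is the experimental counterpart of the repeated airway closure of sleep apnoea. Tissues meet low oxygen by stabilising hypoxia-inducible factors, by folding stress responses of the cytosol and the endoplasmic reticulum, and by changing mitochondrial fuel use. The circadian clock of the vessel wall, in which the activators Arntl and Clock drive their own repressors, sets the daily level of many of the same genes, so that the hour of sampling matters for them.

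Calls follow the thresholds named in the methods, an unadjusted p under 0.05 with a change of more than 1.1-fold. The interaction was called for 6878 probe sets, 10.4% of those tested. Of these, 2817 (4.27%) were higher, meaning that the effect of CIH was more positive at 12 weeks, and 4061 (6.16%) were lower. After Benjamini-Hochberg adjustment, limma left 0 probe sets at an adjusted p under 0.05 (lowest 0.0559), 309 had an adjusted p under 0.1, and 6905 (10.5%) had an unadjusted p under 0.05. Leaving out 1 array left that adjusted count at 0 except in 6 cases. It was 529 without replicate 1 of CIH 8W and 147 without replicate 2 of that group, 318 without replicate 2 of CIH 12W, 104 without replicate 5 of Nor 8W, and 115 and 1 without replicates 4 and 3 of Nor 12W. The balance of directions depended on the scaling of the arrays: higher calls made up 41.0% as deposited, 64.4% with arrays shifted to a common median (4626 higher, 2561 lower) and 62.3% after quantile normalization (4409 higher, 2663 lower). Protein-coding probe sets were more often higher (1579 of 19546, 8.08%) than lower (1276, 6.53%) as deposited.

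The called probe sets were sorted by the comparison in which CIH differed from normoxia. Reversed means called at both times in opposite directions (234 probe sets, 0.355%), appeared means called at 12 weeks alone (3553, 5.39%), and lost means called at 8 weeks alone (1461, 2.22%). For these the background is the calls of the single comparisons, 3.99% higher and 2.47% lower at 8 weeks, and 4.29% higher and 6.99% lower at 12 weeks. A further 1628 were called for the interaction and in neither comparison, and 2 were called in the same direction at both times. Of the reversed probe sets 133 went from lower to higher and 101 from higher to lower. The reversed count was 745 and 104 without replicates 1 and 3 of CIH 8W, 144 without replicate 2 of Nor 8W and 61 without the neuron-rich arrays. The lost count was 3453 and 762 without the same replicates 1 and 3 of CIH 8W, and 2466 and 861 without replicates 5 and 3 of Nor 8W. Among those that appeared the sign at 8 weeks was opposite in 85.6%, and among those lost the sign at 12 weeks was opposite in 95.5%, as the definition of an interaction call favours. The change between the times was larger in the CIH arm for 4636 called probe sets and larger in the normoxia arm for 2242. In the reversed probe sets that became higher, for example, the median rose by 0.46 between CIH 8W and CIH 12W while it fell by 0.27 between Nor 8W and Nor 12W. Across all probe sets the effects at 8 and 12 weeks had a Pearson's r of -0.0799, given as a description across probe sets that share arrays.

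**Figure D1:**
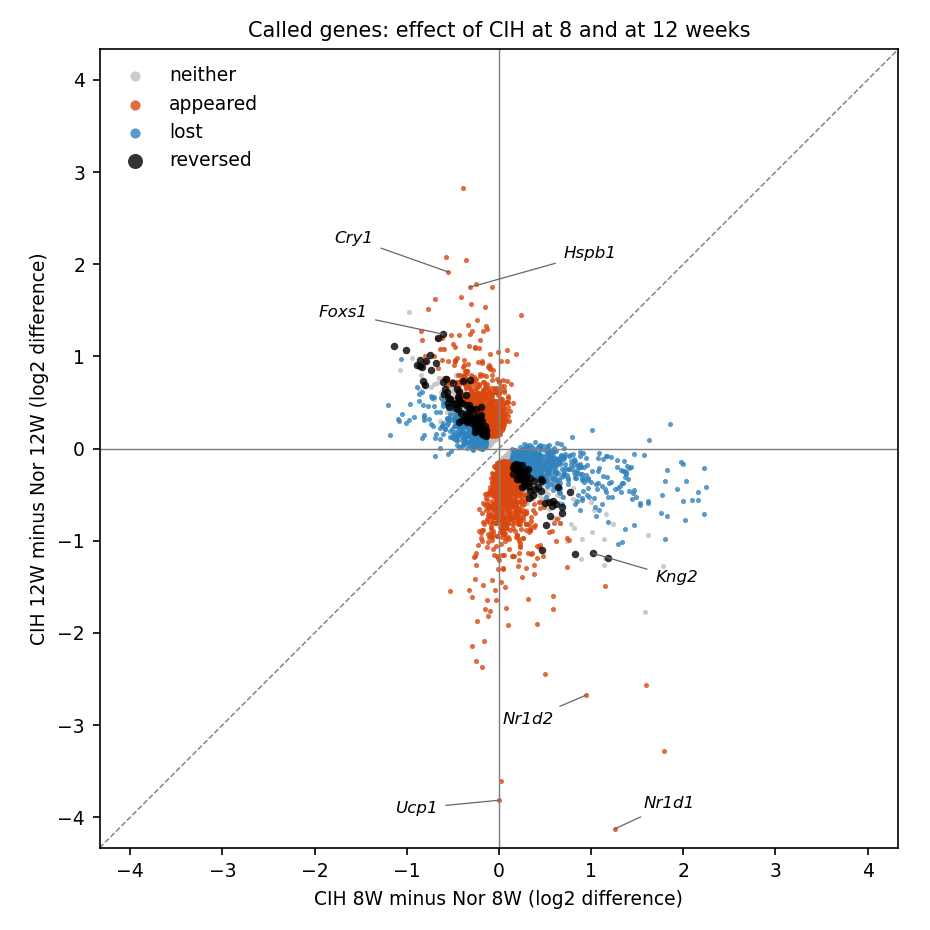
Each point is a probe set called for the interaction that maps to 1 gene, so a gene can have more than 1 point. Points are placed by the log2 difference between CIH and normoxia at 8 weeks (horizontal) and at 12 weeks (vertical), and coloured by class. The dashed line marks equal effects, and the reversed genes (black) lie at the upper left and lower right, with Foxs1 at -0.60 and 1.24 and Kng2 at 1.02 and -1.14.

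Genes that CIH lowered at 8 weeks and raised at 12 weeks were led by Rnps1, an RNA-binding protein of the exon junction complex. Also among the 6 with the smallest interaction p was Vps37c, a subunit of the ESCRT-I complex that sorts membrane cargo. The signals of Vps37c at 8 weeks were 6.34, 6.36, 6.25, 6.33 and 6.37 in Nor 8W and 6.21, 6.19, 6.09, 6.2 and 6.17 in CIH 8W. The 12-week signals were 6.15, 6.18, 6.14, 6.01 and 6.09 in Nor 12W and 6.28, 6.39, 6.41 and 6.35 in CIH 12W. The groups did not overlap at either time and changed order, which gave an interaction of 0.40 (SE 0.0816, adjusted p = 0.0581 from limma). In all, 7 probe sets (0.0106%) had groups that were apart at both times in opposite order, while 416 (0.631%) were apart at 8 weeks and 3423 (5.19%) at 12 weeks. The other named genes among the 7 were Trim3, Dym, Serf1 and Pramel51, which were chosen for this pattern after their values were seen.

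Rnps1 had signals of 10.45, 10.43, 10.40, 10.29 and 10.15 in Nor 8W and 10.24, 10.15, 10.16, 10.09 and 10.11 in CIH 8W. At 12 weeks they were 10.22, 10.10, 10.37, 9.93 and 9.88 in Nor 12W and 10.61, 10.55, 10.50 and 10.53 in CIH 12W, so that the groups overlapped at 8 weeks and were apart at 12 weeks. Its interaction was 0.64 (SE 0.111, adjusted p = 0.0559 from limma), and it stayed reversed in 18 of 19 repeats that each left out 1 array. Rasl11a, a small GTPase of the Ras family, went from -0.57 at 8 weeks to 0.76 at 12 weeks, and Csdc2, a cold shock domain RNA-binding protein, from -0.44 to 0.56, and both stayed reversed in all 19 repeats. Foxs1, a forkhead transcription factor, went from -0.60 to 1.24, an interaction of 1.85 (SE 0.391), and was reversed in 13 of the 19. The lncRNA E130006D01Rik went from -0.31 to 0.74 and was reversed in 14 of the 19. In these 6 genes the CIH arm rose between the times and the normoxia arm fell, by 0.14 (E130006D01Rik) to 0.78 (Rasl11a).

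The opposite course, raised at 8 weeks and lowered at 12 weeks, was led by Kng2, a kininogen gene that encodes a precursor of vasoactive kinins. Its signals at 8 weeks were 5.42, 5.79, 5.22, 5.84 and 6.65 in Nor 8W and 5.67, 7.10, 7.07, 7.36 and 6.82 in CIH 8W. Values at 12 weeks were 6.50, 6.76, 6.24, 6.59 and 6.89 in Nor 12W and 5.54, 5.45, 5.66 and 5.21 in CIH 12W. The 12-week groups were apart, while at 8 weeks CIH 8W replicate 1 lay among the controls, and the interaction was -2.15 (SE 0.402, adjusted p = 0.0559 from limma). Calcrl, the receptor subunit for adrenomedullin and calcitonin gene-related peptide, had means of 11.38 ± 0.27 (n = 5) in Nor 8W, 11.70 ± 0.16 (n = 5) in CIH 8W, 11.85 ± 0.24 (n = 5) in Nor 12W and 11.32 ± 0.17 (n = 4) in CIH 12W. Its difference turned from 0.32 to -0.54. Ppp1r14b, an inhibitor of protein phosphatase 1, turned from 0.64 to -0.42, the pseudogene Gm7332 from 0.77 to -0.47 and Rcbtb2, a BTB domain protein, from 0.22 to -0.18. For Rcbtb2 the change lay in the normoxia arm, which rose by 0.38, against -0.02 in the CIH arm. Gm3411 had the smallest 8-week difference of these genes, 0.15, with -0.27 at 12 weeks, and was reversed in 11 of the 19 repeats. Calcrl was reversed in 16, Gm7332 in 15 and Ppp1r14b in 14 of them, and Kng2 and Rcbtb2 in all 19.

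Effects that appeared at 12 weeks were led in the upward direction by Fem1a, a substrate adaptor of a cullin ubiquitin ligase, and by Haus8, part of augmin, which branches spindle microtubules. Haus8 had signals of 5.93, 6.15, 6.02, 5.94 and 6.47 in Nor 8W and 6.36, 5.96, 6.03, 5.87 and 6.26 in CIH 8W. In the 12-week groups they were 6.12, 6.4, 6.00, 6.24 and 6.02 in Nor 12W and 7.09, 7.11, 7.38 and 7.20 in CIH 12W. The 4 CIH 12W arrays stood above all 15 others, and the interaction of 1.05 (SE 0.174, adjusted p = 0.0559 from limma) lay almost wholly in the CIH arm, which rose by 1.1 against 0.05 in normoxia. Fem1a had an interaction of 0.52 and Baiap2l1, a membrane-bending protein that binds actin, one of 0.51. Transcription regulators were also in the lead: Skil, a repressor of Smad signalling (0.72), Gata6, a zinc finger factor of smooth muscle and heart (1.01), and the Krüppel-like factor Klf8 (0.42). Gata6 had means of 11.79 ± 0.17 (n = 5) in Nor 12W and 12.54 ± 0.09 (n = 4) in CIH 12W, against 12.37 ± 0.24 (n = 5) in Nor 8W and 12.12 ± 0.34 (n = 5) in CIH 8W, so that its signal fell by 0.58 with time in normoxia and rose by 0.42 in CIH.

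In the downward direction the leading genes were Pygl, Micos13 and 4 genes of the Y chromosome. Pygl, the liver form of glycogen phosphorylase, had signals of 7.61, 7.87, 8.04, 8.39 and 7.97 in Nor 8W and 7.85, 7.57, 7.74, 7.94 and 8.31 in CIH 8W. Those at 12 weeks were 9.47, 9.47, 9.13, 9.52 and 10.26 in Nor 12W and 7.68, 8.26, 7.40 and 7.89 in CIH 12W. Nor 12W stood above the 3 other groups, which overlapped one another, and the interaction of -1.67 (SE 0.318, adjusted p = 0.0559 from limma) lay in the normoxia arm, which rose by 1.59 against -0.08 in CIH. Micos13, a subunit of the complex that shapes mitochondrial cristae, had an interaction of -0.80, with 9.13 ± 0.12 (n = 5) in Nor 12W and 8.36 ± 0.10 (n = 4) in CIH 12W.

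Effects that were lost by 12 weeks included both directions. Hspb8, a small heat shock protein that works with the co-chaperone Bag3, had signals of 10.96, 11.32, 11.69, 11.12 and 11.20 in Nor 8W and 11.16, 10.29, 9.85, 10.65 and 10.62 in CIH 8W. The 12-week signals were 11.14, 11.15, 10.74, 11.19 and 10.87 in Nor 12W and 11.49, 11.33, 11.15 and 11.19 in CIH 12W. Thus 4 of 5 CIH 8W arrays lay below all controls of that time, the 12-week groups overlapped, and the interaction was 1.01 (SE 0.258, adjusted p = 0.128 from limma). Pip5k1b, a phosphoinositide kinase, fell by 0.76 at 8 weeks and differed by 0.33 at 12 weeks. Prkab2, a subunit of the energy sensor AMPK, fell by 0.47 and then differed by 0.32, and Laptm4b, a lysosomal membrane protein, fell by 0.48 and then differed by 0.29. Smaller losses of the same kind were Ogfod3 (interaction 0.44) and Bcl7b, a subunit of chromatin remodelling complexes (0.27).

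Among genes that CIH raised at 8 weeks and that were not called at 12 weeks, Ccz1, part of the exchange factor for the late endosomal GTPase Rab7, had the smallest p, with 0.44 at 8 weeks and -0.21 at 12 weeks. Nrp2, a co-receptor of semaphorins and vascular endothelial growth factors, had signals of 7.04, 6.99, 6.51, 7.28 and 7.76 in Nor 8W and 7.07, 9.0, 9.0, 7.44 and 8.29 in CIH 8W. The 2 highest values belong to CIH 8W replicates 2 and 3, the arrays with the highest macrophage signal. Its difference was 1.05 at 8 weeks and -0.63 at 12 weeks. Met, the hepatocyte growth factor receptor, had 0.66 and -0.37, the small nucleolar RNA Snord23 0.34 and -0.21, and the pseudogenes Gm9103 and Gm10131 0.75 and 0.53 at 8 weeks. Gm10131 was no longer called without the neuron-rich arrays.

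Lists of genes with a common role were then described by their calls and medians, beside 5.74% higher and 7.12% lower calls among all 30738 genes at 1 probe set each. The median interaction of all probe sets was -0.0261.

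**Figure D2:**
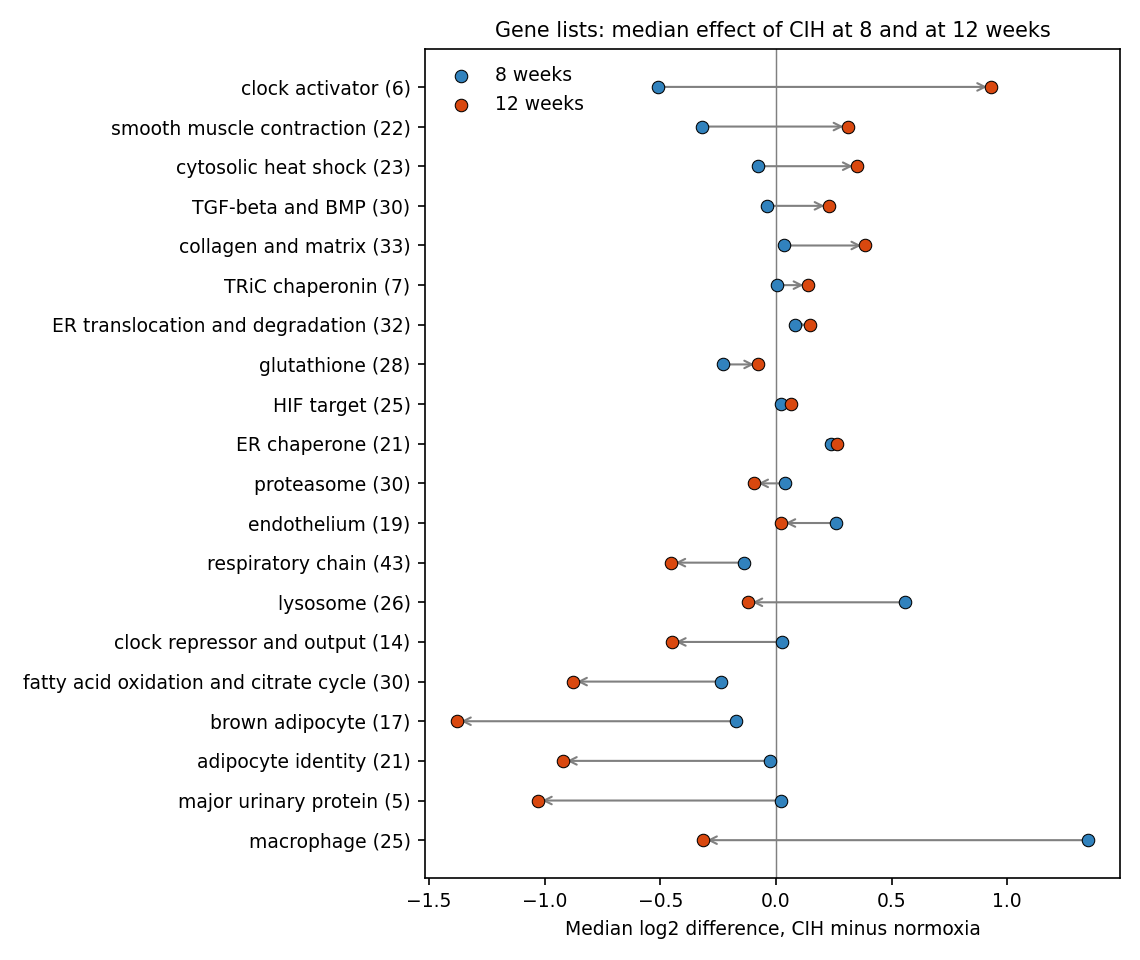
Median log2 difference between CIH and normoxia at 8 weeks (blue) and at 12 weeks (orange) for 20 gene lists, ordered by the median interaction, with the number of genes measured in parentheses. The arrow of the macrophage list runs from 1.35 to -0.32 and that of the smooth muscle list from -0.32 to 0.31.

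Genes of the circadian clock changed in both directions. Nr1d1 and Nr1d2, the REV-ERB repressors of Arntl, and Dbp, an output factor of the clock, were lower under CIH at 12 weeks, while Cry1, Nfil3 and Rora were higher, and none of the 6 was called at 8 weeks. Nr1d1 had signals of 11.57, 6.64, 7.58, 7.40 and 7.82 in Nor 8W and 8.51, 11.75, 8.39, 9.70 and 8.94 in CIH 8W. At 12 weeks they were 11.72, 10.88, 11.69, 11.49 and 10.78 in Nor 12W and 7.12, 6.46, 9.62 and 5.54 in CIH 12W. The 12-week groups were apart by over 1 unit, whereas at 8 weeks Nor 8W replicate 1 stood near the level of Nor 12W and its 4 companions lay at 6.64 to 7.82. The interaction was -5.38 (SE 1.18, adjusted p = 0.0741 from limma), as the signal rose by 3.11 in normoxia and fell by 2.27 in CIH. Nr1d2 followed with 0.95 at 8 weeks and -2.67 at 12 weeks, and Dbp with 0.50 and -2.45. Bhlhe40, a repressor of the same loop, was lost, with 0.96 and -0.43.

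Cry1, a cryptochrome that represses the activators, ran the other way. Its signals were 5.83, 6.95, 6.44, 6.45 and 7.74 in Nor 8W and 6.54, 4.96, 6.08, 6.51 and 6.58 in CIH 8W. Values at 12 weeks were 5.06, 5.40, 5.35, 5.27 and 5.54 in Nor 12W and 6.95, 7.71, 6.41 and 7.90 in CIH 12W. All CIH 12W values lay above all Nor 12W values, the 8-week groups overlapped, and the interaction was 2.46 (SE 0.485, adjusted p = 0.0581 from limma). Nfil3, a repressor that opposes Dbp, had an interaction of 1.44, and Rora, which activates Arntl, one of 1.00. Arntl itself had signals of 9.21, 10.32, 9.73, 9.54 and 11.47 in Nor 8W and 6.86, 8.09, 10, 9.09 and 11.32 in CIH 8W. In the 12-week groups they were 9.20, 9.19, 8.64, 8.43 and 9.58 in Nor 12W and 8.40, 11.39, 11.36 and 10.81 in CIH 12W. Its groups overlapped at both times, owing at 12 weeks to CIH 12W replicate 1, and its interaction of 2.46 (adjusted p = 0.387 from limma) was called while neither single difference was. CIH 12W replicate 1 was the highest of its group in Nr1d2 and Dbp, whereas in Nr1d1 the highest was CIH 12W replicate 3.

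In numbers, 4 of 6 genes of the Arntl phase of the clock (Arntl, Npas2, Clock, Rora, Cry1, Nfil3) were higher and 0 lower, with medians of -0.51 at 8 weeks and 0.93 at 12 weeks. Of 14 repressors and outputs, 5 were lower (Nr1d1, Nr1d2, Dbp, Ciart and Bhlhe40) and 2 higher. The 2 were Per2, with -0.62 and 1.2, and Cry2, reversed from -0.39 to 0.74. Cry2 stayed reversed in 13 of the 19 repeats that each left out 1 array. Leaving out any 1 array kept the counts at 4 to 6 higher calls of the first list and 4 to 6 lower calls of the second. Without CIH 8W replicates 2 and 3, a choice made after seeing the data, 3 and 3 were left, and Bhlhe40 and Rora were no longer called. Without the neuron-rich arrays the counts were 5 and 5, but Bhlhe40 and Per2 lost their calls. With the hour of collection not given, a difference in clock phase between groups and a difference in clock level cannot be told apart.

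**Figure D3:**
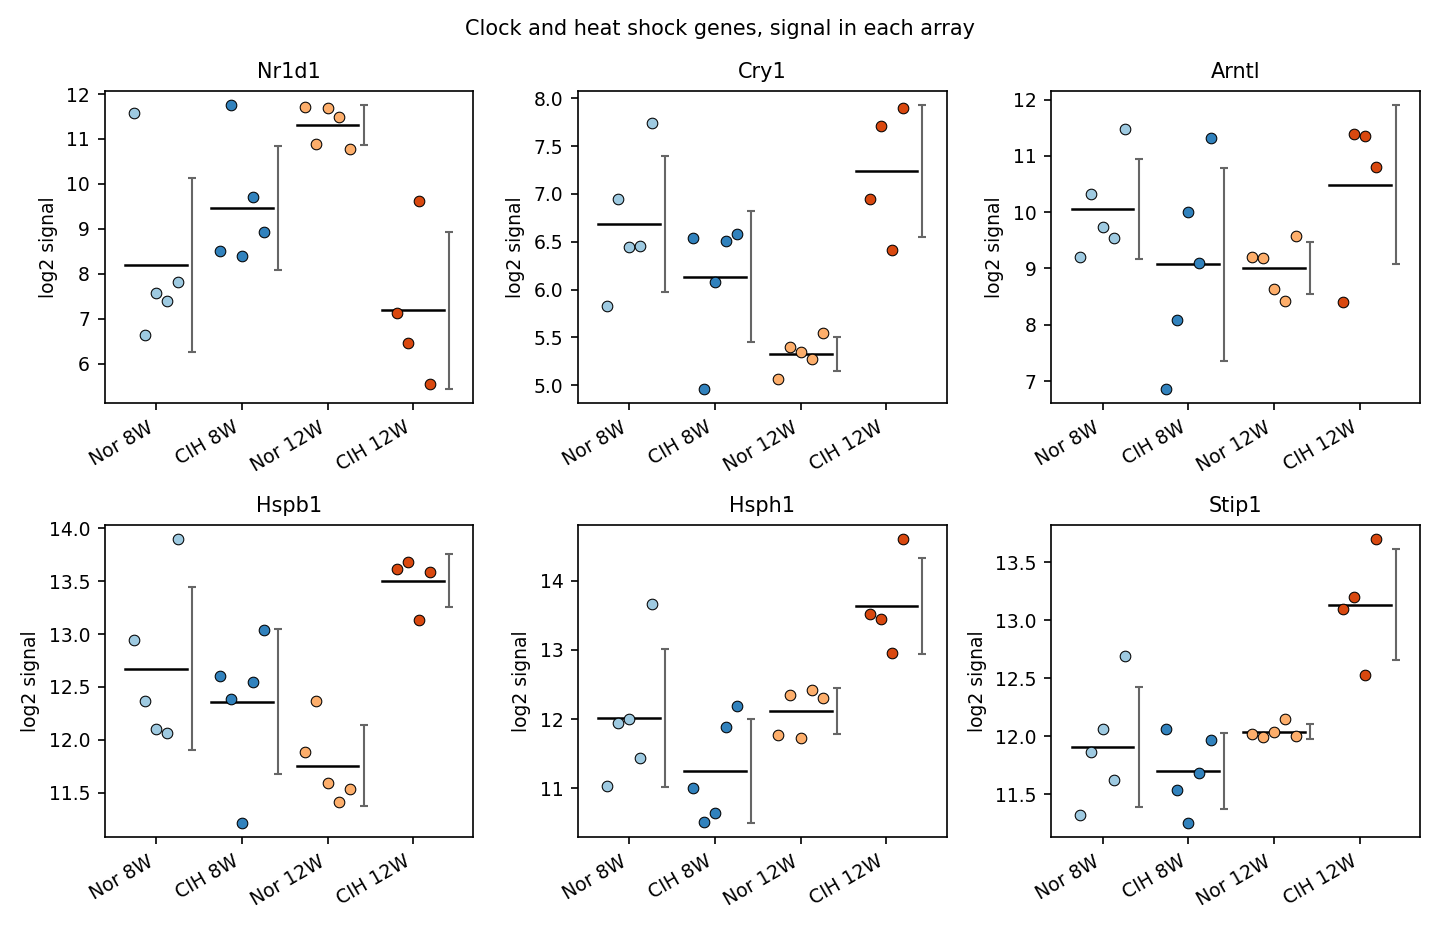
Log2 signal in each array (points) of 3 clock genes (upper row) and 3 heat shock genes (lower row) in the 4 groups, with the mean (horizontal line) and 1 SD (grey bar). Nr1d1 lay at 10.78 to 11.72 in Nor 12W and at 5.54 to 9.62 in CIH 12W, and Stip1 lay at 12.53 to 13.70 in CIH 12W and at 11.99 to 12.15 in Nor 12W.

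The promoters of Cry1 and Arntl are shown because both genes are regulated through known clock elements. They are 300-base RefSeq windows of build GRCm38.p6, from 250 bases before the start of the gene, on the strand of the gene: chr10:85185005-85185304 (minus strand) and chr7:113207261-113207560 (plus strand). Capitals mark the E-box CACGTG in Cry1, which begins 60 bases before the start, and a match to the ROR element, which binds RORs and REV-ERBs, in Arntl, which begins 26 bases after it.
Cry1: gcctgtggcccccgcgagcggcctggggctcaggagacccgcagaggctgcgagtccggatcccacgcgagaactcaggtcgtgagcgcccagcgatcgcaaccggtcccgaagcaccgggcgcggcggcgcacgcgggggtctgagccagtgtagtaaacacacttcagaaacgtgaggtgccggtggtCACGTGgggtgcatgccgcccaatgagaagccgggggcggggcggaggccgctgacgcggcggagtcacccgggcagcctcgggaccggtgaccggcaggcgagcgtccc
Arntl: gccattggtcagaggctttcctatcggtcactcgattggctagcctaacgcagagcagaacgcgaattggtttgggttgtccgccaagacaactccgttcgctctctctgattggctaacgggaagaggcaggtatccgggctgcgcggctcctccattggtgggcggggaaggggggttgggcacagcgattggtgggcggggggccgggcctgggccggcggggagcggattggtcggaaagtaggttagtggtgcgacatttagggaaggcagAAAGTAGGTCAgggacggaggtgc
Both strands were searched. Of 32851 such windows of mouse genes, 7.15% held CACGTG and 0.368% the ROR element. CACGTG was found in 4 of the 11 repressor and output genes with a promoter in the table (Per1, Tef, Ciart and Bhlhe41), in 5 of their 13 windows. In the other list it was found in 1 of the 6 genes, Cry1, and in 1 of 9 windows. The ROR element was found in Arntl alone of both lists.

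The cytosolic chaperones that were called were mostly higher under CIH at 12 weeks alone. Of 23 heat shock genes 13 were higher and 0 lower, with a median difference of -0.08 at 8 weeks and 0.35 at 12 weeks. The mean signal of the list was 9.89 to 10.64 in Nor 8W, 9.84 to 10.17 in CIH 8W, 10.14 to 10.32 in Nor 12W and 10.51 to 11.17 in CIH 12W, so that the 12-week groups were apart. Among the 13, 11 appeared, Dnaja4 was reversed and Hspb8 was lost. The count stayed between 11 and 15 when any 1 array was left out and was 12 without the neuron-rich arrays.

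Hspb1, a small heat shock protein that binds unfolding proteins and actin, had the smallest p. Its signals were 12.94, 12.37, 12.10, 12.06 and 13.90 in Nor 8W and 12.60, 12.39, 11.21, 12.55 and 13.04 in CIH 8W. Those at 12 weeks were 11.88, 12.37, 11.59, 11.41 and 11.53 in Nor 12W and 13.62, 13.68, 13.13 and 13.59 in CIH 12W. The 12-week groups were apart, and Nor 8W replicate 5, at 13.90, was the highest array of all. The interaction was 2.07 (SE 0.467, adjusted p = 0.0841 from limma). Hsph1, a large chaperone that recharges Hsp70, had 11.77, 12.35, 11.73, 12.42 and 12.30 in Nor 12W and 13.51, 13.45, 12.95 and 14.60 in CIH 12W. At 8 weeks its values were 11.03, 11.94, 12.00, 11.44 and 13.66 in Nor 8W and 11.00, 10.52, 10.64, 11.89 and 12.19 in CIH 8W, again with Nor 8W replicate 5 far above its group. Its interaction was 2.28 (SE 0.594).

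Stip1, which links Hsp70 to Hsp90, and Ahsa1, which activates Hsp90, had almost constant controls at 12 weeks, with 12.04 ± 0.06 (n = 5) and 8.87 ± 0.09 (n = 5). In CIH 12W the means were 13.13 ± 0.48 (n = 4) and 9.47 ± 0.22 (n = 4), and the interactions were 1.31 and 0.69. Cryab, the alpha-B crystallin of muscle, had an interaction of 1.03. Of the cytosolic chaperonin TRiC 2 of 7 subunit genes were higher, Cct7 (0.60) and Tcp1 (0.14). The call of Tcp1 was lost in 9 of the 19 repeats, with dim probe sets removed and under trended and robust moderation.

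The promoters of Hspb1 and Hspb8 are given for their heat shock element, the inverted pair GAANNTTC that binds heat shock factors, in capitals. Both are RefSeq windows of GRCm38.p6 as above, chr5:135887669-135887968 (plus strand) and chr5:116422815-116423114 (minus strand).
Hspb1: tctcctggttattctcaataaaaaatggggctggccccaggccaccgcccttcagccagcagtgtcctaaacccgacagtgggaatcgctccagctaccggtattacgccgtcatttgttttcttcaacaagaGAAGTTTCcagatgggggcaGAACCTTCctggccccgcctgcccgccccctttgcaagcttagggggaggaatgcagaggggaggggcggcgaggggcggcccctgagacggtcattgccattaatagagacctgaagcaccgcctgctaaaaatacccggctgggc
Hspb8: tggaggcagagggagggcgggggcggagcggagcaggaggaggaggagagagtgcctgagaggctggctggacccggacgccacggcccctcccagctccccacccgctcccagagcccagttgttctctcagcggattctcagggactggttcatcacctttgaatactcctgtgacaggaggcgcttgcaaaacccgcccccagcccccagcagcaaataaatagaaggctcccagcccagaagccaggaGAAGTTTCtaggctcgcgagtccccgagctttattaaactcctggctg
Hspb1 holds 2 matches, the first of which begins 117 bases before the start, and Hspb8 holds 1. The pair occurred in 7.86% of all windows and in 11 of the 25 windows of the listed heat shock genes. By gene, it was in 10 of the 20 with a promoter in the table. The 8-week differences of the pair were -0.32, not called, and -0.74.

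Chaperones of the endoplasmic reticulum had similar medians at both times, 0.24 at 8 weeks and 0.26 at 12 weeks. Of 21 genes 2 were higher, Creld2 and Hyou1, and 1 lower, Cnpy2. The call of Cnpy2 was lost in 12 of the 19 repeats and under 8 other alternatives. Creld2, a folding factor induced by stress of the endoplasmic reticulum, had signals of 9.51, 9.89, 9.75, 9.40 and 9.30 in Nor 12W and 10.84, 11.34, 10.46 and 11.42 in CIH 12W. At 8 weeks they were 8.51, 8.89, 8.46, 8.77 and 10.10 in Nor 8W and 9.51, 9.09, 9.07, 8.95 and 9.31 in CIH 8W. The groups were apart at 12 weeks and overlapped at 8 weeks, through Nor 8W replicate 5, and the interaction was 1.21 (SE 0.353). Hyou1, named for its induction by low oxygen, had 0.18 and 1.03, and lost its interaction call without the neuron-rich arrays. Without Nor 8W replicate 5, both Creld2 and Hyou1 were called higher under CIH at 8 weeks as well as at 12 weeks. Of 32 genes of translocation, export and degradation 5 were higher, among them Sel1l, an adaptor of the degradation ligase (0.66, adjusted p = 0.0963 from limma), and Sec24d, a coat protein of export vesicles (0.77). That count fell to 3 on leaving out replicate 5 of Nor 8W, replicate 3 of Nor 12W or replicate 2 of CIH 12W, and to 2 without the neuron-rich arrays. The promoter of Creld2, chr15:88819396-88819695 (plus strand, same source), holds the ER stress element shown in capitals, which begins 126 bases before the start.
Creld2: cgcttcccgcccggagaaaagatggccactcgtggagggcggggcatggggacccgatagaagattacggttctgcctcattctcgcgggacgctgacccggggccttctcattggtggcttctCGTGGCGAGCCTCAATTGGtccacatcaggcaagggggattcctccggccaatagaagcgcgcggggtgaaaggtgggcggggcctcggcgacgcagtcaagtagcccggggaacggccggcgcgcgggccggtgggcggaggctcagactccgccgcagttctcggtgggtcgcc
This element was found in 0.119% of all windows and in 8 of the 23 windows of the listed chaperone genes. By gene, it was in 8 of the 19 with a promoter in the table, among them Hspa5, Hsp90b1, Calr and Pdia6, whose interactions were not called.

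Contractile genes of smooth muscle had a median difference of -0.32 at 8 weeks and 0.31 at 12 weeks. Of 22 genes 17 were higher and 0 lower. Of the 17, Ldb3 was reversed, 5 appeared, 3 were lost and 8 were called for the interaction alone. Ldb3 stayed reversed in 12 of the 19 repeats that each left out 1 array. Myocd, the coactivator that drives the contractile programme, had signals of 12.81, 12.56, 12.20, 12.09 and 12.28 in Nor 8W and 12.14, 11.68, 9.99, 12.84 and 12.30 in CIH 8W. The 12-week signals were 11.60, 12.01, 9.86, 11.46 and 11.48 in Nor 12W and 12.50, 12.10, 12.23 and 12.59 in CIH 12W. The lowest values by far were CIH 8W replicate 3 and Nor 12W replicate 3, both neuron-rich, and the interaction was 1.67 (SE 0.584, adjusted p = 0.307 from limma). Lmod1, which nucleates actin filaments, had an interaction of 1.81, Ldb3, a protein of the contractile anchoring sites, 1.75, calponin Cnn1 0.80, smooth muscle actin Actg2 0.79 and tropomyosin Tpm1 0.44. Ldb3 was at 6.95 in CIH 8W replicate 3 and at 7.32 in Nor 12W replicate 3, against 8.06 to 9.87 in the other 17 arrays.

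These 2 arrays bore on the whole list. Its mean signal was 13.45 to 13.73 in Nor 8W, 12.55 to 13.75 in CIH 8W, 12.76 to 13.89 in Nor 12W and 13.65 to 13.74 in CIH 12W. Without the 5 neuron-rich arrays 6 of 22 genes were higher, with a median interaction of 0.27 in place of 0.69. Without Nor 12W replicate 3 alone 11 were higher, and without CIH 8W replicates 2 and 3 there were 7. The 4 CIH 12W arrays lay within the range of Nor 12W, and Nor 12W replicate 4 was the highest of all.

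Members of the transforming growth factor and bone morphogenetic protein families, which govern smooth muscle differentiation and matrix, were higher in 8 of 30 cases and lower in 3. The median went from -0.04 at 8 weeks to 0.23 at 12 weeks. Of the ligands, Bmp3 had signals of 7.11, 7.31, 7.08, 6.98 and 7.03 in Nor 12W and 9.61, 8.62, 7.96 and 9.37 in CIH 12W. Its 12-week groups were apart and its 8-week means were 8.39 ± 0.38 (n = 5) and 8.14 ± 0.96 (n = 5), which gave an interaction of 2.04 (SE 0.514, adjusted p = 0.124 from limma). Tgfb3 had an interaction of 0.79. Among signal transducers Smad9 was reversed, from -0.50 to 0.71, in the full set and in all 19 repeats (adjusted p = 0.0701 from limma), and the pseudoreceptor Bambi was reversed from -0.42 to 0.50 in 10 of them. Grem1, an antagonist of bone morphogenetic proteins, was raised at 8 weeks (1.05) and not called at 12 weeks (-0.73). Ccn2, a matricellular target of these signals, appeared, with 15.77 ± 0.47 (n = 4) in CIH 12W against 14.66 ± 0.60 (n = 5) in Nor 12W, and an interaction of 1.44. Of 33 collagen and matrix genes 4 were higher and 2 lower. The lower calls of the signalling list were 5 without Nor 8W replicate 5, and 1 after quantile normalization or without the neuron-rich arrays. The matrix list had 5 lower calls without CIH 8W replicate 1. It had 2 higher and 0 lower without the neuron-rich arrays (limma), and 3 and 0 without CIH 8W replicates 2 and 3.

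Part of the genes of mitochondrial fuel use had lower interaction calls. Of 30 genes of fatty acid oxidation and the citrate cycle 14 were lower and 0 higher, with medians of -0.24 and -0.88. Of 43 genes of the respiratory chain 15 were lower and 0 higher, with medians of -0.14 and -0.45. Those 14 and 15 were called at 12 weeks alone, and the other 16 and 28 had no interaction call. The single comparison at 12 weeks was called lower for 27 of the 30 and 40 of the 43, and that at 8 weeks for 0 and 2. Acaa2, the last enzyme of the beta-oxidation cycle, had signals of 12.05, 12.44, 12.41, 13.30 and 12.77 in Nor 8W and 12.47, 11.29, 11.83, 13.53 and 12.38 in CIH 8W. At 12 weeks they were 13.04, 13.07, 11.79, 13.56 and 13.99 in Nor 12W and 11.23, 11.25, 11.25 and 10.08 in CIH 12W. The 12-week groups were apart, and the 8-week groups overlapped. Its interaction was -1.84 (SE 0.618, adjusted p = 0.287 from limma). Acadl, a long-chain acyl-CoA dehydrogenase, had an interaction of -1.31, with 14.97 ± 0.57 (n = 5) in Nor 12W and 13.49 ± 0.14 (n = 4) in CIH 12W.

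Among respiratory chain genes the complex I subunit Ndufa1 had the smallest p (interaction -0.58, adjusted p = 0.152 from limma). Cox6b1, a subunit of complex IV, had signals of 14.20, 14.29, 14.19, 14.63 and 14.69 in Nor 12W and 13.59, 13.55, 13.48 and 13.13 in CIH 12W. These groups were apart, and its 8-week means were 13.95 ± 0.39 (n = 5) and 13.87 ± 0.29 (n = 5), with an interaction of -0.88. The complex II subunit Sdhb had -0.74 and the complex IV subunit Cox4i1 -0.42. After quantile normalization the counts fell to 7 of 30 and 7 of 43, with 0 higher in each, and without CIH 8W replicates 2 and 3 they were 26 and 28. Without the neuron-rich arrays they were 17 and 15. The second count rose to 24 without Nor 8W replicate 4 or CIH 8W replicate 2.

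Genes of adipocytes, which hold many mitochondria in brown fat, were also among the lower calls. Of 21 genes of adipocyte identity 7 were lower and 1 higher, with medians of -0.02 and -0.92, and of 17 brown adipocyte genes 4 were lower, with medians of -0.17 and -1.38. Lpl, the lipase that takes up fatty acids from lipoproteins, went from 0.58 to -0.90, and Cebpa, a master regulator of adipocytes, from 0.54 to -0.91. Rbp4, the retinol carrier, was the exception, reversed from -0.55 to 0.49, and stayed so in 16 of the 19 repeats. Ucp1, the uncoupling protein of brown fat, had signals of 13.57, 14.75, 13.78, 16.34 and 16.72 in Nor 8W and 16.12, 13.86, 13.05, 17.14 and 14.99 in CIH 8W. Values at 12 weeks were 14.38, 14.12, 10.32, 15.01 and 16.84 in Nor 12W and 9.94, 10.25, 13.61 and 7.48 in CIH 12W. Both 12-week groups spread over more than 6 units and overlapped, and the call was lost in 13 of the 19 repeats. The mean of the brown adipocyte list was 7.15, 7.40, 7.53 and 6.74 in the 4 CIH 12W arrays, within the 7.29 to 9.58 of CIH 8W in 2 of them, and 7.32 to 9.64 in Nor 12W. Leaving out single arrays gave 0 to 9 lower brown adipocyte genes, with a change over 1.5 times for every array but replicates 4 and 5 of Nor 8W and replicate 3 of either CIH group. Without CIH 8W replicates 2 and 3 the counts were 12 of 17 brown adipocyte and 12 of 21 adipocyte genes, and without the neuron-rich arrays 9 and 5, when Lpl was not called. The part of adipocyte content in the mitochondrial lists was not tested.

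**Figure D4:**
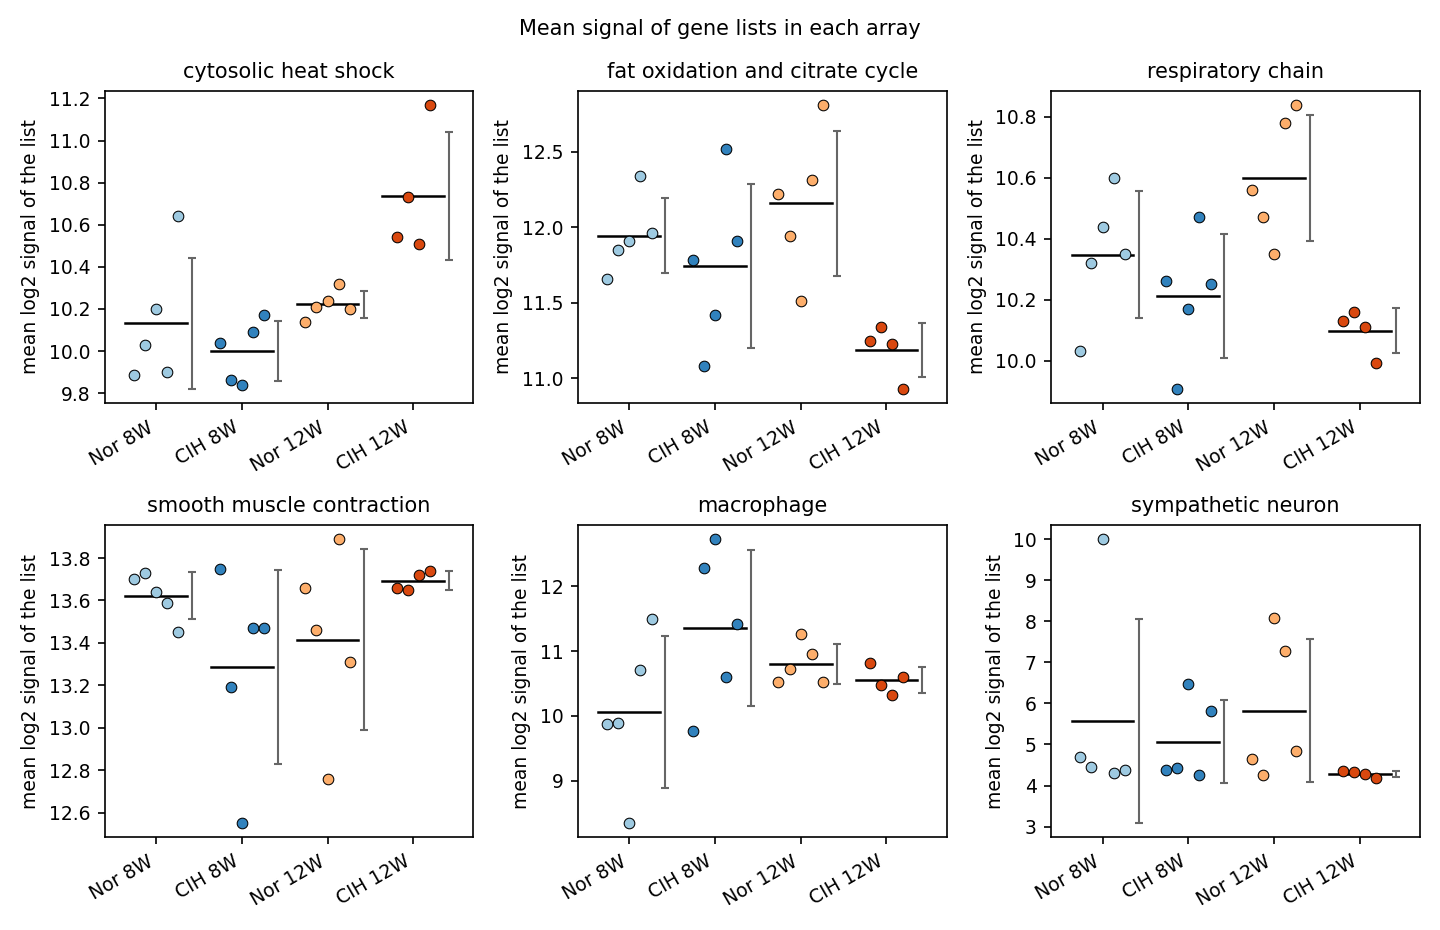
Mean log2 signal of 6 gene lists in each array (points) in the 4 groups, with the mean (horizontal line) and 1 SD (grey bar). CIH 12W is apart from Nor 12W for heat shock, fat oxidation and respiratory chain genes, and in CIH 8W replicate 3 the macrophage list was at its highest (12.73) and the smooth muscle list at its lowest (12.55).

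Macrophage genes, which follow the foam cells of plaques, had a median difference of 1.35 at 8 weeks and -0.32 at 12 weeks. Of 25 genes 10 were lower and 0 higher, 8 of them lost. Msr1, the scavenger receptor of modified lipoproteins, had signals of 8.49, 8.37, 6.83, 9.36 and 10.18 in Nor 8W and 8.32, 12.28, 12.94, 9.97 and 10.82 in CIH 8W. In the 12-week groups they were 9.41, 9.09, 10.72, 10 and 9.08 in Nor 12W and 9.42, 9.46, 9.31 and 9.63 in CIH 12W. At 8 weeks CIH 8W replicates 2 and 3 stood above the rest, and at 12 weeks CIH 12W lay within the range of Nor 12W. The interaction was -2.43 (SE 0.983, adjusted p = 0.396 from limma). Cd36, a scavenger receptor and fatty acid transporter that adipocytes also make, was reversed, from 0.83 to -1.15, and stayed so in 14 of the 19 repeats. Lysosomal genes followed, with 10 of 26 lower, 0 higher and medians of 0.56 and -0.12, and the cathepsin Ctsl had 1.12 and -0.60.

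The macrophage counts changed with single arrays. The mean of the list was 9.87, 9.89, 8.34, 10.71 and 11.49 in Nor 8W and 9.77, 12.28, 12.73, 10.60 and 11.42 in CIH 8W, against 10.52 to 11.26 in Nor 12W and 10.33 to 10.81 in CIH 12W. The lowest of these was the neuron-rich Nor 8W replicate 3. Without the neuron-rich arrays 0 of the 25 macrophage and 0 of the 26 lysosomal genes were called in the interaction by limma, with median interactions of -0.49 and -0.15 in place of -1.59 and -0.54. Without CIH 8W replicates 2 and 3 the counts were 1 and 0. Leaving out any 1 array gave 3 macrophage calls (without replicate 3 of Nor 8W, 2 or 3 of CIH 8W, or 2 of CIH 12W) to 19 (without replicate 5 of Nor 8W), a change over 1.5 times for all but replicate 4 of Nor 8W, 1 and 5 of Nor 12W and 1 of CIH 12W. The lysosomal count ran from 4 (without replicate 2 or 3 of CIH 8W) to 17 (without replicate 1 of that group), and with the replicate number as a block there were 5 in each list.

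Endothelial genes were lower in 4 of 19 cases and higher in 0, led by Vwf, the von Willebrand factor. Its signals were 10.90, 10.96, 10.10, 10.96 and 10.63 in Nor 8W and 11.19, 11.94, 12.55, 11.06 and 11.42 in CIH 8W. The 8-week groups were apart, and at 12 weeks the difference was -0.20, for an interaction of -1.13 (SE 0.32). The other 3, Emcn, Kdr and Cdh5, were not called without the neuron-rich arrays, when 1 gene of the list was lower and 2 higher. Targets of hypoxia-inducible factors had 4 higher and 4 lower of 25, with medians of 0.02 and 0.07. P4ha1, a collagen prolyl hydroxylase (0.98), and the glucose transporter Slc2a1 (0.93) were higher, and Pdk1, a kinase that restrains pyruvate oxidation, was lower (-0.30). The lower count fell to 1 or 2 when 1 of 7 arrays was left out (3 and 4 of Nor 8W, 4 and 5 of CIH 8W, 4 and 5 of Nor 12W, and 4 of CIH 12W), and to 0 without the neuron-rich arrays. Of 30 proteasome genes 5 were lower, against 3 without replicate 3 of CIH 8W, Nor 12W or CIH 12W and 1 without the neuron-rich arrays. The proteasome median of -0.10 turned to 0.01 after quantile normalization.

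Precursors of microRNAs known from vessels were higher in 6 of 21 cases and lower in 0. They were Mir145a, Mir125b-1, Mir125b-2, Mirlet7c-1, Mir29a and Mir133a-1. Mature strands are shown for Mir125b-1, Mir125b-2, Mir29a and Mirlet7c-1, because Mir125b-1 and Mir125b-2 give the same mature strand from separate loci. The seed, bases 2 to 8, is in capitals, and the sequences are from RefSeq, build GRCm38.p6.
miR-125b-5p: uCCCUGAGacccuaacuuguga
miR-29a-3p: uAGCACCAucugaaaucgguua
let-7c-5p: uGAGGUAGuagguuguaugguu
The first lies at chr9:41581940-41581961 and chr16:77646279-77646300, both plus strand, the second at chr6:31062673-31062694, minus strand, and the third at chr16:77599672-77599693, plus strand. The 3 seeds differ, and let-7c lies near the second copy of miR-125b on chromosome 16.

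Mir125b-1 had signals of 4.14, 4.31, 3.81, 4.54 and 4.36 in Nor 8W and 4.22, 4.31, 3.84, 4.15 and 4.34 in CIH 8W. Those at 12 weeks were 4.02, 4.12, 4.12, 4.11 and 4.16 in Nor 12W and 4.75, 4.72, 5.17 and 5.19 in CIH 12W. The 12-week groups were apart, at signals near the background limit, and the interaction was 0.92 (SE 0.18, adjusted p = 0.0581 from limma). Mir125b-2, with the same mature strand, had 0.56, Mirlet7c-1 1.08 and Mir29a 0.51. Probes of a precursor do not measure the mature strand apart from its host transcript. Without CIH 8W replicates 2 and 3, 3 of the 21 were higher, and without the neuron-rich arrays 4. Of the 21, 8 exceeded the background limit in the mean of at least 1 group, and with dim probe sets removed 3 of 7 were higher.

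Of the Y-linked probe sets 402 of 558 (72.0%) were lower and 0 higher, with a median interaction of -0.78. Most were dim: the mean of 80 exceeded the background limit in at least 1 of the 4 groups, and 58 of these were lower. A probe set could thus pass through the groups where it was higher. Their mean signal was 4.12 to 4.31 in Nor 8W, 4.12 to 4.61 in CIH 8W, 4.13 to 4.61 in Nor 12W and 3.57 to 4.13 in CIH 12W, with CIH 12W replicate 2 at the top of its group. In CIH 8W+Nor 4W, the group returned to normoxia, it was 3.66 to 3.98, within the range of CIH 12W. The low signal was thus not limited to mice still under CIH, and its cause was not tested. The leading genes were Gm20736, with 5.09 ± 0.20 (n = 5) in Nor 12W and 4.27 ± 0.15 (n = 4) in CIH 12W, and Gm21409, Gm20835 and Gm20858, with interactions of -0.99, -0.98 and -0.98. These belong to families of near-identical Y-linked copies, whose probes can share sequence, so the 402 are not separate measures. The count was 385 after median centring, 339 without the neuron-rich arrays and 381 to 436 when any 1 array was left out. With dim probe sets removed, which tests fewer probe sets, it was 8.

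Small RNAs of the nucleus showed the same direction. Of 928 small nuclear RNA probe sets 170 were lower (18.3%) and 4 higher, and of 959 small nucleolar RNA probe sets 169 were lower (17.6%) and 9 higher. The small nucleolar signal was highest in 4 of the 5 neuron-rich arrays, with 5.99 in Nor 8W replicate 3 and 6.01 in Nor 12W replicate 3 against 4.61 to 4.90 in CIH 12W. In CIH 8W+Nor 4W it was 4.62 to 4.91, much as in CIH 12W. Without the neuron-rich arrays 25 small nuclear and 150 small nucleolar probe sets were lower. The small nuclear count was 96 after quantile normalization. Without a single array it fell to 92 (replicate 3 of CIH 8W), 93 (replicate 3 of Nor 12W), 105 (replicate 4 of CIH 12W), 108 and 111 (replicates 2 and 1 of Nor 8W) and rose to 308 (replicate 1 of Nor 12W). The small nucleolar count rose to 312 without replicate 3 of Nor 8W and to 271 without replicate 2 of Nor 12W, and fell to 108 without replicate 4 of CIH 12W. Of the major urinary protein genes, pheromone carriers of liver whose copies are near-identical, 5 of 5 were lower. Mup5 had signals of 5.10, 5.44, 5.33, 5.24 and 5.31 in Nor 12W and 3.93, 3.95, 3.96 and 3.57 in CIH 12W, which were apart, and 4.40 ± 0.47 (n = 5) and 4.32 ± 0.44 (n = 5) in the 8-week groups. The CIH 12W values lay below the background limit of every array. Its interaction was -1.35 (SE 0.378).

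**Figure D5:**
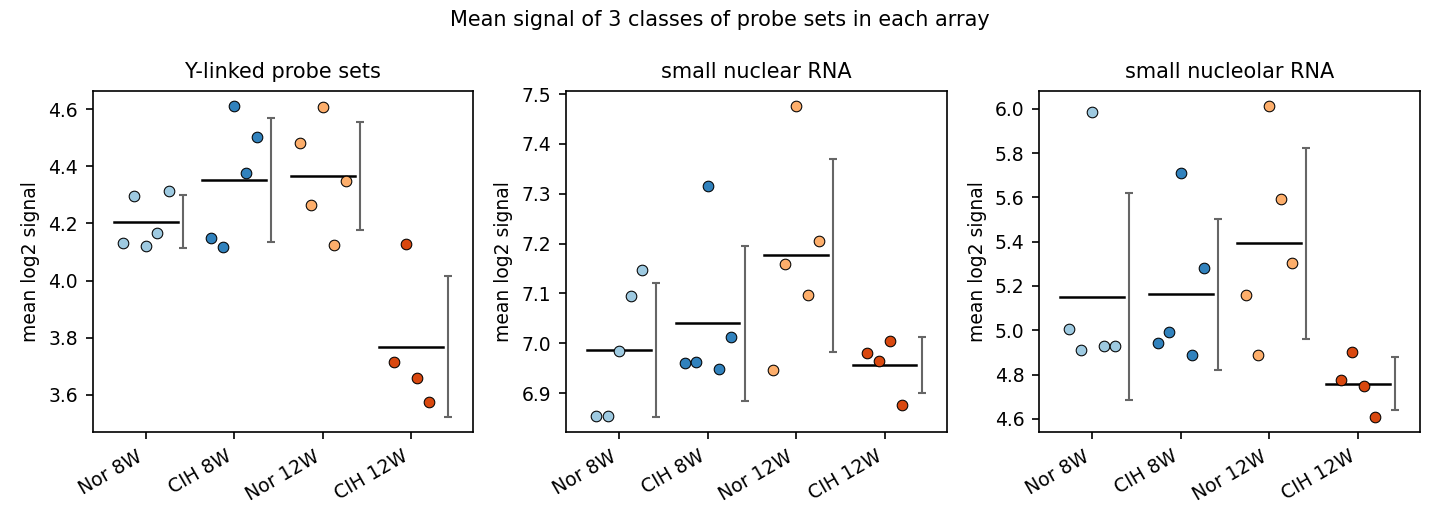
Mean log2 signal of Y-linked, small nuclear RNA and small nucleolar RNA probe sets in each array (points) in the 4 groups, with the mean (horizontal line) and 1 SD (grey bar). For Y-linked probe sets 3 of 4 CIH 12W arrays lay at 3.57 to 3.72 and the fourth at 4.13, near the lowest arrays of the other groups.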

How the data were processed

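Aortic RNA of perfused mice was labelled with a whole-transcript kit and hybridised to Clariom D arrays. The authors normalized the scans in Transcriptome Analysis Console 4.0, and the submitters' notes also name Affymetrix Expression Console. The deposited values are log2 signals, and the summary method and the version of the latter are not given in the sources used here. No depth exists for arrays, so precision rests on the 4 or 5 arrays of a group. Each array was taken as 1 animal, since no pooling is stated.

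The deposited log2 signals of 65956 probe sets were fitted in limma 3.58.1 (R 4.3.3), with a mean for each of the 5 groups and a contrast for the interaction, and p-values were adjusted by Benjamini-Hochberg over all of them. Calls needed p under 0.05, unadjusted, with a change of more than 1.1-fold. The code was checked on simulated data. Background was the 95th percentile of 23 background probe sets an array. Through the platform annotation and RefSeq, 31292 probe sets had 1 gene, 1522 several and 33142 none, and 984 symbols were updated. The brightest probe set stood for each of 30738 genes. A probe set with no name is unnamed here, not without a gene. The genes named are the 6 with the smallest interaction p of each class and direction, among probe sets of 1 gene above background in at least 1 group, and up to 6 of each list discussed. A further part of the rule, for adjusted p-values under 0.05, named none. Trim3, Dym, Serf1 and Pramel51 and members listed for a promoter motif or to complete a count were chosen outside that rule, with their values known. The members and lists were chosen with earlier results of these data known, as were the neuron-rich arrays. Alternatives were another scaling, a filter on dim probe sets, other moderation, array weights, a fold of 1.5, a replicate block, fits of 4 groups, and fits without single or several arrays. Leaving out CIH 8W replicates 2 and 3 and applying the alternatives to the lists were added after seeing the data. Figures were drawn in matplotlib 3.10.9.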

Additional observations from a re-analysis of the deposited data

Results flagged for a closer look

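Single arrays stood apart from their group, by Dixon's test at the 95% level, in 17 of 324 groups examined over 81 genes, and chance alone gives about 1 in 20. Nor 12W replicate 3 held 6 of them. In that array Micos13, the cristae subunit, was at 9.35 against 9.05 to 9.11 in the others of its group, and Snord23 at 6.46 against 6.05 to 6.12. Its smooth muscle genes were low, with Ldb3 at 7.32 (others 8.72 to 9.11), Actg2 at 14.18 (14.75 to 14.98), Myocd at 9.86 (11.46 to 12.01) and Tpm1 at 10.80 (11.35 to 11.40).

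In CIH 12W replicate 3 the chaperone Hspb1 was at 13.13 (others 13.59 to 13.68), the degradation adaptor Sel1l at 12.26 (12.47 to 12.50) and Cd36 at 14.09 (14.75 to 14.87). In CIH 12W replicate 4 the thiolase Acaa2 was at 10.08 (11.23 to 11.25) and Mup5 at 3.57 (3.93 to 3.96). Among clock genes Nr1d1 was at 11.57 in Nor 8W replicate 1 (others 6.64 to 7.82) and Cry2 at 6.50 in Nor 12W replicate 1 (5.83 to 5.96). Creld2 was at 10.10 in Nor 8W replicate 5 (8.46 to 8.89), and Rcbtb2 at 7.03 in CIH 8W replicate 3 (6.72 to 6.81). Of the adipocyte genes Cebpa was at 8.98 in Nor 12W replicate 5 (7.31 to 7.67) and Lpl at 13.67 in CIH 8W replicate 1 (15.08 to 15.63).

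Vps37c was singled out because every CIH array lay below its controls at 8 weeks and above them at 12 weeks, with an interaction of 0.40 from differences of -0.16 and 0.25. The limma test of that difference is given with the gene above.

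In CIH 8W+Nor 4W, the group outside the interaction, the REV-ERB genes were above the arrays of all other groups. Nr1d1 had a mean of 13.03, against 5.54 to 11.75 in the single arrays of the 4 groups compared, and Nr1d2 a mean of 13.11, against 7.62 to 12.52.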

How the results depend on the processing

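Over all pairs of a named gene and an alternative, 3829 stayed on their side of the call threshold, 241 lost the call, 3 gained it and 0 changed sign. Median centring gave 4626 higher and 2561 lower calls, and quantile normalization 4409 and 2663. These moved the median interaction of all probe sets from -0.0261 to 0.0306 and 0.017. With dim probe sets removed, which tests fewer probe sets, there were 1761 higher and 1738 lower calls, with 137 reversed, 1778 appeared and 830 lost, and 8 Y-linked lower. At a fold change over 1.5 the counts were 938 and 1567, with 34 reversed, 1031 appeared and 338 lost. Without the 5 neuron-rich arrays they were 1317 and 2066, with 61 reversed, 2124 appeared and 464 lost, and the lowest adjusted p was 0.425 (limma). Without CIH 8W replicates 2 and 3 there were 1803 higher calls, 111 reversed and 712 lost.

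Leaving out single arrays gave 2165 to 3635 higher and 3061 to 5506 lower calls, 0 to 529 at an adjusted p under 0.05, 104 to 745 reversed, 2629 to 4077 appeared and 762 to 3453 lost. The extremes of all but the appeared calls came without CIH 8W replicate 3 (lowest) or replicate 1 (highest), save that the adjusted count was 0 without many arrays. The cause was not tested. Same-numbered arrays deviated together in some pairs and not in others (r from -0.382 to 0.711, 10 of 27 pairs over 0.1). Replicate 3 was neuron-rich in Nor 8W, CIH 8W and Nor 12W. With the replicate number as a block there were 2958 higher and 3995 lower calls, with 261 reversed, 3859 appeared and 1284 lost. Lgals3, Ftl1, Hmox1, Otop1, Ucp1, Cpt1b and Tubb1 were not called under the block. Probe sets near background, including most Y-linked, immunoglobulin segment, microRNA and urinary protein probe sets, are limited by the background signal.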

Other observations

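Immunoglobulin variable segments, the products of plasma cells, were lower in the interaction for 22 of 203 genes and higher for 0, with medians of 0.43 at 8 weeks and -0.20 at 12 weeks. Of the 203, 86 exceeded the background limit in the mean of at least 1 group. With dim probe sets removed 2 of 52 were lower, and without the neuron-rich arrays 31 of 203. A list of 13 B and plasma cell genes had 0 interaction calls. Igkv5-43 lay at 2.57 to 3.11 in CIH 12W and at 3.83 to 8.46 in Nor 12W, and its groups at 8 weeks overlapped. Its CIH 12W values lay below the background limit, and its call was lost without the neuron-rich arrays. The count of lower segments was 8 to 33 when single arrays were left out and fell to 8 to 13 without replicates 1, 2 or 3 of Nor 8W, 2, 3 or 4 of CIH 8W, 5 of Nor 12W or 1 of CIH 12W. Of 28 glutathione genes 7 were lower and 3 higher, and of 14 genes of NRF2 and superoxide defence 5 were lower and 1 higher. Median centring and quantile normalization each gave 6 higher and 6 lower glutathione genes. The higher calls rose to 8 without replicate 5 of Nor 8W, 7 without replicate 1 of CIH 8W, 5 and 6 without replicates 1 and 3 of Nor 12W and 5 without replicate 2 of CIH 12W. The lower calls of the NRF2 list fell to between 1 and 3 without any of 12 arrays, that is all but replicates 2, 4 and 5 of Nor 8W, 1 and 5 of CIH 8W and 1 and 2 of Nor 12W, and to 1 after quantile normalization. Gpx3, the secreted glutathione peroxidase, went from 0.33 at 8 weeks to -0.91 at 12 weeks, the microsomal transferase Mgst1 from 0.38 to -0.85, and Hmox1, the haem oxygenase of macrophages and other cells, from 2.02 to -0.78. Without the neuron-rich arrays 1 glutathione gene was lower and 1 higher, and 0 of the NRF2 list were lower in limma. Muscle glycogen genes held Pygm, the muscle phosphorylase, with -1.20 and 0.47, and Casq1, the calcium store protein of striated muscle, was reversed from -1.14 to 1.12, in 6 of the 19 repeats that each left out 1 array. Neither Pygm nor Casq1 was called without the neuron-rich arrays. The 21 sympathetic neuron genes themselves had 0 interaction calls in limma, and 15 were lower without Nor 8W replicate 3.

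The group returned to normoxia (CIH 8W+Nor 4W) can be set beside the 12-week effect, with which it shares the Nor 12W arrays, so the values are given side by side with no test. Heat shock genes had a median of 0.35 in CIH 12W and -0.04 after the return, chaperones of the endoplasmic reticulum 0.26 and -0.04, and the Arntl group of the clock 0.93 and -0.28. Smooth muscle genes had 0.31 and 0.36, respiratory chain genes -0.45 and -0.44, and fat oxidation and citrate cycle genes -0.88 and -0.61. Clock repressors and outputs had -0.45 and 0.91.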
